A study of Mus musculus with 4 samples.

Results

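The GIMAP genes were described in regulatory T (Treg) cells with and without Nsd2. The members were the 8 genes Gimap1, Gimap3, Gimap4, Gimap5, Gimap6, Gimap7, Gimap8 and Gimap9, taken by their name in the deposited tables. They had 11 of the 19291 transcript rows and were 8 of 13734 genes, and all 8 passed the filter, a mean level of 1 RPKM or more (a read count divided by the length of the transcript and the size of the library), as did 10518 genes in all. For each gene the transcript row with the highest mean was used. The libraries came from splenic Treg cells of C57BL/6 mice, with 2 libraries from mice carrying an Nsd2 conditional knockout (cKO) in Treg cells and 2 from wild-type (WT) mice. Nsd2 is a histone methyltransferase that acts on histone H3. RNA of at least 3 mice went into each library, so replicates differ as pools do and their spread may be partly technical. The labels name neither the Cre driver, nor the deleted exons, nor the age or sex of the mice, nor the markers used for sorting. Bulk RNA cannot tell fewer cells of a type from less RNA per cell.

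GIMAP proteins (GTPases of the immunity-associated protein family) are small GTP-binding proteins found mostly in lymphocytes, many of them anchored to intracellular membranes. Their genes lie side by side in mammals and are known for keeping T cells alive. Loss of Gimap1 or of Gimap5 depletes mature T cells in mice, and loss of Gimap5 in rats causes lymphopenia. Binding of several members to proteins of the BCL2 family, which set the threshold for mitochondrial cell death, has been described in mice.

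The targeted gene was lower in both libraries labelled cKO. Nsd2 stood at 3.46 and 4.27 RPKM in cKO and at 6.82 and 7.44 RPKM in WT (54.2% of the WT mean). Neither this gene nor any other passed limma's test over all genes. The RPKM sums were 437436 and 436104 in cKO and 430395 and 425786 in WT. Steps between low values gave depths from 19084000 to 21234000 reads per library. The T and Treg cell markers Cd3d, Cd3e, Cd3g, Cd4, Foxp3 and Il2ra were between 104 and 282 RPKM in every library, and the groups overlapped for all 6. The 3 B cell markers with a value, Cd79a, Cd79b and Cd22, summed to 11.7 and 10.8 RPKM in cKO and to 8.46 and 6.78 RPKM in WT. The 6 macrophage and monocyte markers summed to 21 and 6.04 RPKM in cKO and to 6.81 and 10.5 RPKM in WT. The 4 of 6 CD8 T and NK cell markers with a value summed to between 15.3 and 20.1 RPKM in all libraries. B and NK cells also express GIMAP genes, and the part of such cells in the GIMAP values was not tested.

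The 8 genes lay within 123.7 kb of mouse chromosome 6 (GRCm38, 48647186 to 48770851), in the order Gimap8, Gimap9, Gimap4, Gimap6, Gimap7, Gimap1, Gimap5 and Gimap3. Gimap6 and Gimap3 are on the minus strand and the other members on the plus strand. The coding sequences in GENCODE M21 held 1 stretch each for the phosphate-binding loop of GTPases, which grips the phosphates of the bound nucleotide, and 3 such stretches in Gimap8, which is known for its several GTPase domains. The loop was searched for as codons: a glycine codon, any 4 codons, then codons for glycine, lysine and serine or threonine. The stretches are shown because this loop is the feature the members share. Each has 24 bases, read 5′ to 3′ along the coding strand, with the fixed codons in capitals.
Gimap1 (chr6:48742552-48742575, plus strand): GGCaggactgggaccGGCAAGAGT
Gimap3 (chr6:48765887-48765910, minus strand): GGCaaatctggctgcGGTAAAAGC
Gimap4 (chr6:48690421-48690444, plus strand): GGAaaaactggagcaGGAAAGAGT
Gimap5 (chr6:48752594-48752617, plus strand): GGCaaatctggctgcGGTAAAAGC
Gimap6 (chr6:48702750-48702773, minus strand): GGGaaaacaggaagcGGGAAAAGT
Gimap7 (chr6:48723524-48723547, plus strand): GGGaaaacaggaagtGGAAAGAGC
Gimap8, match 1 (chr6:48650256-48650279, plus strand): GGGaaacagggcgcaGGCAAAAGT
Gimap8, match 2 (chr6:48656119-48656142, plus strand): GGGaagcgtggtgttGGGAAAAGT
Gimap8, match 3 (chr6:48658746-48658769, plus strand): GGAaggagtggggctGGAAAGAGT
Gimap9 (chr6:48677523-48677546, plus strand): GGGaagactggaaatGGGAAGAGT
The loops of Gimap3 and Gimap5 were the same in all 24 bases. Across their whole coding sequences (903 and 924 bases) this pair was identical at 90.4% of 895 aligned bases. The next most alike of the 28 pairs were Gimap7 and Gimap9 at 66.6%, and the lowest identity was 56.1%, between Gimap1 and Gimap9.

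The likeness of Gimap3 and Gimap5 bears on their values, because the reads had only 50 nt. Of 2096 windows of 50 nt in the Gimap3 transcript, 190 (9.06%) occurred unchanged in that of Gimap5. At even coverage these windows would draw 1825 and 1760 Gimap3 reads in the cKO libraries and 1953 and 1752 in the WT libraries. The whole Gimap5 value stood for about 1487 and 1332 reads in cKO and 1535 and 1177 in WT. The sources used here do not say how the authors divided such reads, so the level of Gimap5 is uncertain. Gimap1 shared 13.5% of its exon bases with the antisense gene Gimap1os, and the use of strand is not stated either. Gimap1, Gimap5 and Gimap7 shared 13.3%, 7.83% and 6.38% of their exon bases with Gm28053, a transcript annotated on the same strand. No 50 nt window of Gimap4, Gimap6, Gimap8 or Gimap9 occurred in another gene's transcripts.

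GIMAP transcripts were abundant in Treg cells of both genotypes. The summed level of the 8 genes was 1456 and 1419 RPKM in the cKO libraries and 1505 and 1477 RPKM in the WT libraries. This was between 0.325% and 0.350% of the RPKM summed over all 19291 transcript rows of a library. That total counts genes with several rows more than once, while each member was counted with 1 row. The group means of the summed level were 1437 ± 26.3 RPKM in cKO and 1491 ± 19.3 RPKM in WT (SD, n = 2 each), a ratio of 0.964. Between the highest and the lowest member, Gimap3 and Gimap5, the means over all libraries differed 13.2-fold. This ratio depends on how their shared reads were divided. All 8 members ranked within the first 1599 of 13734 genes by mean RPKM, and Gimap3 ranked at 67.

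**Figure D1:**
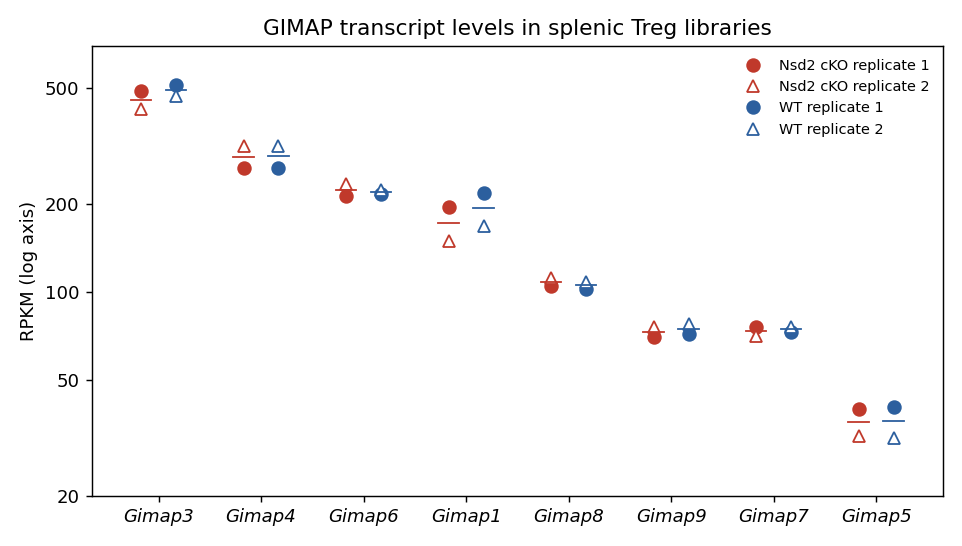
RPKM (log axis) of the 8 GIMAP genes in order of mean level, with Nsd2 cKO libraries in red to the left and WT libraries in blue to the right; filled circles are replicate 1, open triangles replicate 2 and short lines the group means. Gimap3 lies highest, at 426 to 515 RPKM, Gimap5 lowest, at 31.6 to 40.3 RPKM, and the 2 genotypes overlap for every gene.

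Gimap1, which mature T and B cells of mice need, stood at 196.7 and 149 RPKM in cKO and at 219 and 169 RPKM in WT. Replicate 2 was the lower library in each genotype, and the groups overlapped. Its mean was 173 ± 33.4 RPKM in cKO and 194 ± 35.1 RPKM in WT (SD, n = 2 each), and the log2 fold change of -0.16 had a 95% interval from -0.65 to 0.33 (limma's adjusted p = 0.9998). Both rows of Gimap1 gave nearly the same values, so they are not separate measurements.

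Gimap5, required for T cell survival in mice and rats, stood at 39.6 and 32.1 RPKM in cKO and at 40.3 and 31.6 RPKM in WT. Replicate 2 was again the lower library in each genotype and the groups overlapped. The log2 fold change was -0.00072 with an interval from -0.44 to 0.44 (limma's adjusted p = 0.9998).

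Gimap3, the mouse gene most like Gimap5, is known for a protein of the mitochondria and endoplasmic reticulum. It was the most abundant member, with 488 and 426 RPKM in cKO and 515 and 472 RPKM in WT. The lower cKO library lay below both WT libraries, and the higher one lay between them. The means were 457 ± 44.0 RPKM in cKO and 494 ± 30.5 RPKM in WT (SD, n = 2 each), with a log2 fold change of -0.11 and an interval from -0.46 to 0.23 (limma's adjusted p = 0.9998). Gimap3 made up 33.6% and 30.0% of the family's summed level in cKO and 34.3% and 32.0% in WT. Relative to Gimap5 it was 12.3-fold and 13.3-fold higher in cKO and 12.8-fold and 14.96-fold higher in WT. These ratios depend on how reads shared by the 2 genes were divided, which is not stated.

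Gimap4, a member whose loss alters the death of T cells in mice, stood at 267 and 318 RPKM in cKO and at 266 and 318 RPKM in WT. The 2 genotypes had nearly the same pair of values, and here replicate 2 was the higher library in each. Its mean in cKO was 99.9% of that in WT, with a log2 fold change of -0.00067 and an interval from -0.39 to 0.39. The second Gimap4 row stood at 244 and 319 RPKM in cKO and at 247 and 319 RPKM in WT, again with replicate 2 higher in each genotype and over a wider range.

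Gimap6, whose protein binds the autophagy protein Gabarapl2, stood at 213 and 235 RPKM in cKO and at 217 and 225 RPKM in WT. The WT libraries lay inside the range of the cKO libraries, and the cKO mean was 1.02 times the WT mean. Gabarapl2 itself was at 26.1 and 24.6 RPKM in cKO and at 26.8 and 25.3 RPKM in WT.

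The levels of the other 3 members lay between those of Gimap1 and Gimap5. Gimap8 stood at 105 and 111 RPKM in cKO and at 102 and 108 RPKM in WT. Gimap7, whose protein is known from human to form dimers that hydrolyse GTP, stood at 76.1 and 70.6 RPKM in cKO and at 73.2 and 75.7 RPKM in WT. For Gimap9 the values were 70.4 and 76.0 RPKM in cKO and 71.7 and 77.8 RPKM in WT. The groups overlapped for all 3 genes, and the cKO means were 103%, 98.5% and 97.96% of the WT means for Gimap8, Gimap7 and Gimap9.

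In order of level the members ran Gimap3, Gimap4, Gimap6, Gimap1, Gimap8, Gimap9, Gimap7 and Gimap5. The ranges over the 4 libraries overlapped for 2 of the neighbours in this order, Gimap6 with Gimap1 and Gimap9 with Gimap7. Gimap6 was above Gimap1 in 3 of 4 libraries, and Gimap9 above Gimap7 in 2 of 4. The other neighbours held the same order in 4 of 4 libraries.

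No GIMAP gene passed the test between genotypes. With limma on log2(RPKM + 1), 0 of 8 members had an adjusted p under 0.05, where 0% of the 10518 genes did, and 0 of 8 had an unadjusted p under 0.05, where 332 genes (3.16%) did. In 0 members were both cKO values above both WT values, against 17.4% of all genes, and in 0 members were both below, against 9%. The log2 fold change was above 0 for 2 of 8 members, Gimap6 and Gimap8, and for 0 of 8 with median-of-ratios scaling. The median over the members was -0.01, and -0.06 with that scaling, beside 0.03 over all genes tested, and -0.01 with that scaling. The median size of the difference was 0.03 for the members and 0.07 for the 3156 genes tested whose mean reached 20 RPKM. These are descriptions and do not show that the genotypes are alike. As folds on the log2(RPKM + 1) scale, the 95% intervals ran from 0.636 to 1.25 for Gimap1, the widest, and from 0.800 to 1.21 for Gimap7, the narrowest on the log2 scale.

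**Figure D2:**
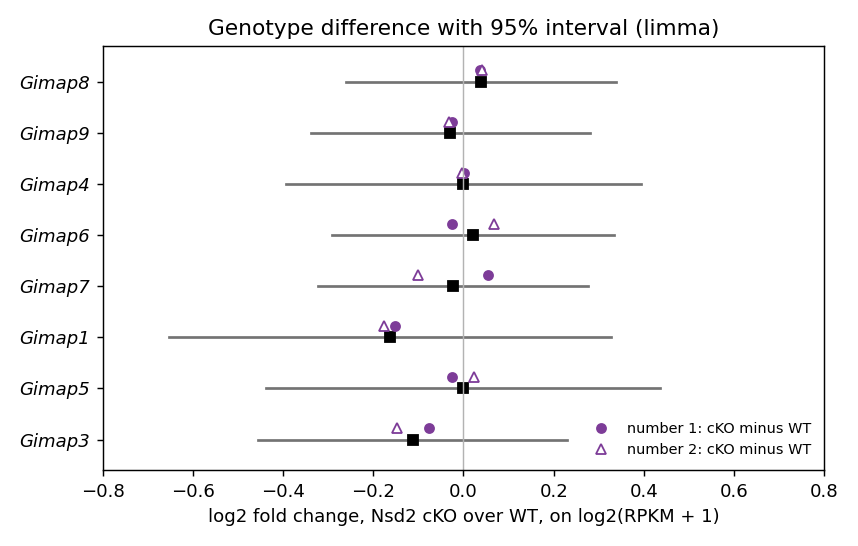
Log2 fold change of Nsd2 cKO over WT on the log2(RPKM + 1) scale (x axis) for the 8 genes in their order along the cluster; black squares are the limma estimates, grey lines their 95% intervals, and purple symbols the differences between libraries of the same number (filled circles number 1, open triangles number 2). Every interval spans 0, and the estimates lie between -0.16 and 0.04.

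Between libraries of the same number the differences were small as well. For Gimap1 the log2 difference of cKO minus WT was -0.15 for number 1 and -0.18 for number 2, and for Gimap3 it was -0.08 and -0.15. The 2 differences had the same sign for 4 of 8 members, which were Gimap1, Gimap3, Gimap8 and Gimap9. For Gimap4 they were 0.0013 and -0.0027, and for Gimap7 they were 0.05 and -0.10.

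The members differed more between replicate numbers than between genotypes, as did most genes. For 8 of 8 members, and for 67.5% of all genes tested, the mean difference between numbers was larger in size than the genotype difference. Its median size was 0.14 on the log2 scale for the members and 0.17 over all genes tested. In order along the cluster, Gimap8, Gimap9, Gimap4 and Gimap6 were higher in replicate 2 in both genotypes, as were 39.4% of all genes. Gimap1, Gimap5 and Gimap3, at the other end of the cluster, were lower in replicate 2 in both genotypes, as were 38.1% of all genes. Gimap7, which lies between them, was lower in replicate 2 in cKO and higher in WT. Whether place in the cluster bears on these differences was not tested.

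The differences by number were alike in both genotypes for the 3 members where they were largest. For Gimap1 the ratio of replicate 2 to replicate 1 was 0.760 in cKO and 0.773 in WT. The ratio for Gimap5 was 0.811 in cKO and 0.783 in WT, and for Gimap4 it was 1.191 in cKO and 1.194 in WT. The level of Gimap1 relative to Gimap4 was thus 0.738 and 0.471 in cKO and 0.821 and 0.531 in WT for replicates 1 and 2. The fewest reads behind a Gimap1 value were about 4738, for which the counting error is 1.45%, and for Gimap5 they were about 1177, with 2.91%. Counting errors leave out all other sources of spread, and for Gimap5 also the division of reads shared with Gimap3. The labels do not say what libraries of the same number share. The summed level of the 5 of 6 erythroid markers with a value was also lower in replicate 2, at 42.9 and 7.37 RPKM in cKO and at 24.4 and 11.5 RPKM in WT, and its part in these differences was not tested.

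**Figure D3:**
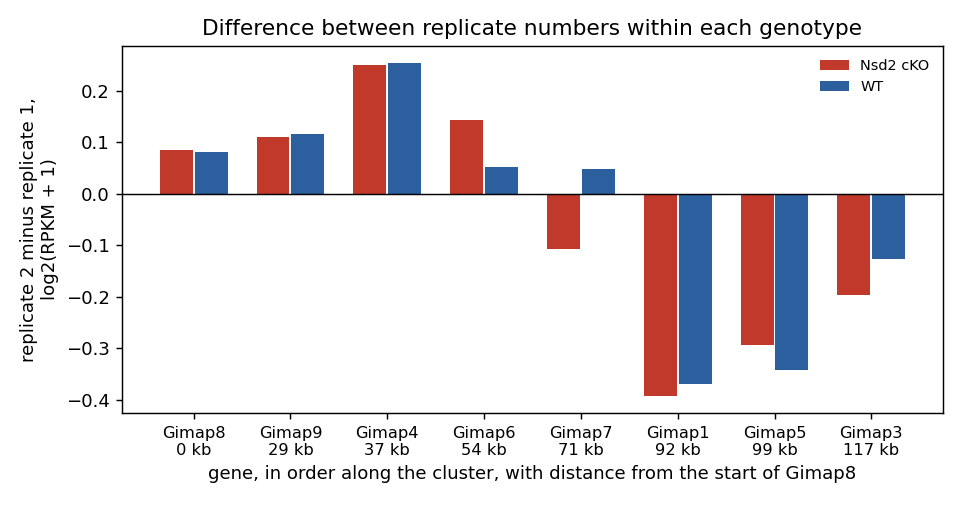
Difference of replicate 2 minus replicate 1 in log2(RPKM + 1) (y axis) within Nsd2 cKO (red, left bars) and WT (blue, right bars) for the 8 genes in order along the cluster, with the distance from Gimap8 in kb. The bars are above 0 for Gimap8, Gimap9, Gimap4 and Gimap6, of mixed sign for Gimap7, and below 0 for Gimap1, Gimap5 and Gimap3, reaching -0.39 in cKO and -0.37 in WT for Gimap1.

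Among genes whose mean reached 20 RPKM, the 2 whose profile over the 4 libraries came closest to the median profile of the members were Ifnar1 and Gorasp2. Their root mean square differences were 0.0066 and 0.0092 on the log2 scale, among 3148 genes compared. Ifnar1, a receptor chain for type I interferon, stood at 33.6 and 33.5 RPKM in cKO and at 32.8 and 33.9 RPKM in WT, nearly level over the libraries. The members themselves differed from their median profile by 0.033 for Gimap7 to 0.21 for Gimap1, more than Ifnar1 or Gorasp2 did. Members higher and members lower in replicate 2 offset each other in that median. Closeness to it is therefore not likeness to single members.

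The genes around the cluster that had a value were lower than its members. Of 36 other genes annotated within 250 kb of either end, 10 had a value and 9 were tested, and the highest had a mean of 19.5 RPKM beside 35.9 RPKM for the lowest member. Of the 9, 6 had a log2 fold change above 0 and 0 were called with limma. Both cKO libraries were above both WT libraries for 5 of 9, which were Repin1, Zfp775, AI854703, Tmem176b and Tmem176a, beside 17.4% of all genes. These 5 were low, with means from 1.30 to 2.88 RPKM, near the filter of 1 RPKM. The groups overlapped for the 4 others tested, whose means ran from 6.93 to 19.5 RPKM. Tmem176b, which encodes a membrane protein, had the largest genotype difference of the 9 genes. It stood at 3.65 and 3.69 RPKM in cKO and at 2.06 and 2.10 RPKM in WT, with a log2 fold change of 0.60 and an interval from 0.27 to 0.93 (limma's unadjusted p = 0.00477, adjusted p = 0.9998). Tmem176a overlaps it in the annotation, so reads of the 2 genes may not be separated. Tmem176a was at 2.78 and 2.23 RPKM in cKO and at 2.08 and 1.70 RPKM in WT.

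**Figure D4:**
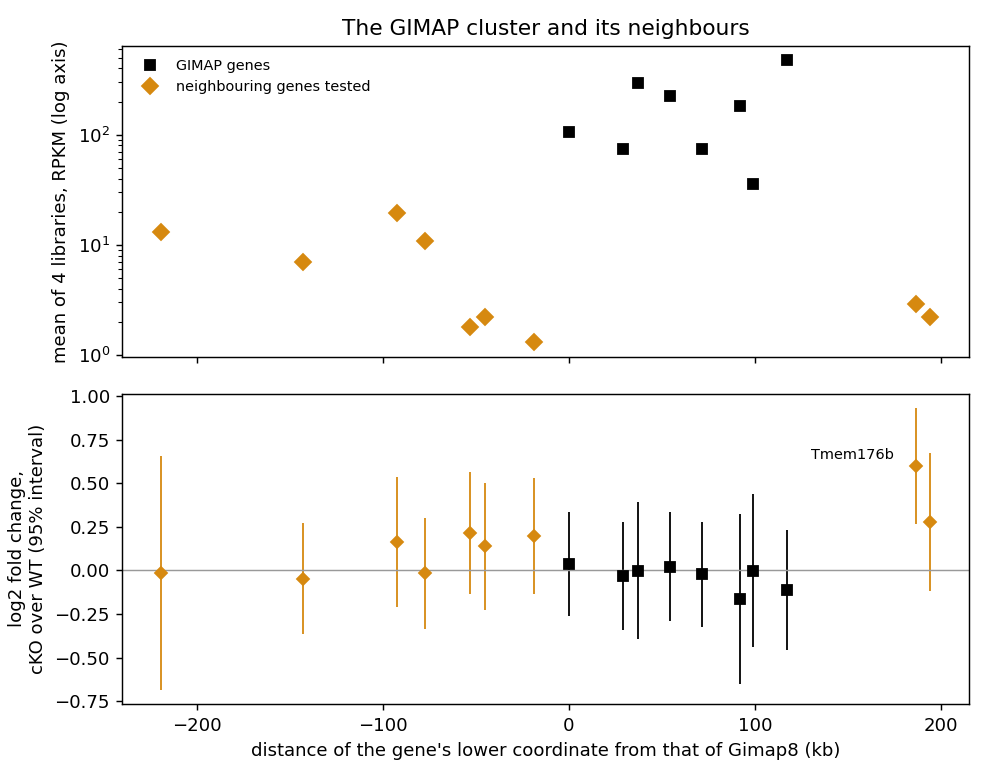
Mean level of the 4 libraries in RPKM (upper panel, log axis) and log2 fold change of Nsd2 cKO over WT with its 95% interval (lower panel), by distance from the start of Gimap8 in kb; black squares are GIMAP genes and orange diamonds the neighbouring genes tested. GIMAP genes lie above all neighbours in level, and Tmem176b has the highest fold change, at 0.60.

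The start regions of Gimap3 and Gimap5 are shown because these genes, the most alike in coding sequence, had the highest and the lowest level of the family. The level of Gimap5 is uncertain because of the shared reads. Each window of 300 bases (RefSeq, GRCm38.p6) runs from 250 bases before the gene's start to 50 after it, read 5′ to 3′ in the direction of transcription, with matches to the motifs searched in capitals.
Gimap3 (chr6:48770802-48771101, minus strand): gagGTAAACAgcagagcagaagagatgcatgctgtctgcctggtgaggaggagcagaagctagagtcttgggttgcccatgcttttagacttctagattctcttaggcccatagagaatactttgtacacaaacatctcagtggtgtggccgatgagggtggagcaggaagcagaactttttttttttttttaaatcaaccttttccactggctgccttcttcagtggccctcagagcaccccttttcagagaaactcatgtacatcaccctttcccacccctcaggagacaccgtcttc
Gimap5 (chr6:48745947-48746246, plus strand): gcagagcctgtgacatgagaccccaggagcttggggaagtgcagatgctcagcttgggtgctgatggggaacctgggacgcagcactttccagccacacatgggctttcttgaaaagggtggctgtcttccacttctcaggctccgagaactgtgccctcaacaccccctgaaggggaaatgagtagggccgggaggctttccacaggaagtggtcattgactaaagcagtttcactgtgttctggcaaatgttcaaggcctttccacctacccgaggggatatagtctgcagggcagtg
Motifs were searched on both strands in the 9 windows of the 8 genes (Gimap8 has more than one start), and no matches overlapped. The FOXO motif GTAAACA was found in the Gimap3 window and in no other member's, and in 3.65% of 32851 promoters of the same length. None of the motifs searched was found in the Gimap5 window. The RUNX motif TGTGGT was found in the windows of Gimap4, Gimap7 and Gimap1, and in 16.8% of all promoters. The SP/KLF motif GGGCGG was in those of Gimap9 and Gimap7, and in 35.7% of all promoters, and the TATA box motif TATAAA was in that of Gimap6 and in 13.6%. The ETS motif CCGGAA and the TCF/LEF motif CTTTGAT were each found in 0 of 9 windows, and in 14.9% and 3.73% of all promoters. A match is a description of letters and does not show binding. Only these exact letters were searched, so a window without a match may still hold other forms of the same site.

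Lists of other genes were read from the same fit, and a link between them and the GIMAP genes was not tested. Of 10 genes of the BCL2 family tested, 0 passed over all genes, 5 had a positive log2 fold change, and the groups did not overlap for 4, with cKO higher for 2 and lower for 2, beside 17.4% higher and 9% lower among all genes. Bcl2l11, which encodes the death-promoting protein Bim, was at 14.99 and 15.8 RPKM in cKO and at 22.03 and 20.9 RPKM in WT, with a log2 fold change of -0.45 (limma's unadjusted p = 0.00891, adjusted p = 0.9998). Bcl2l11 is named because its unadjusted p was the lowest of this list, which was chosen with earlier results of these data known. Bcl2, which protects cells from death, was at 67.9 and 68.4 RPKM in cKO and at 80.7 and 70.6 RPKM in WT, with both cKO libraries just below the lower WT library. Bcl2l1, its relative Bcl-xL, was at 20.6 and 20.5 RPKM in cKO and at 18.2 and 14.3 RPKM in WT. Bax, a pore-forming partner in death, was at 86.2 and 56.1 RPKM in cKO and at 74.8 and 55.3 RPKM in WT, lower in replicate 2 of each genotype.

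Of 13 genes of ATG8 conjugation and autophagy, the route in which Gimap6 is known to take part, 6 had a positive log2 fold change and 0 passed, with a median of -0.01. Of 15 resting T cell genes, 4 were above 0, 0 passed, and the groups did not overlap for 8, with cKO lower for 6 and higher for 2, beside 9% lower and 17.4% higher among all genes. Il7r, the receptor chain for the survival cytokine interleukin 7, was at 33.6 and 47.7 RPKM in cKO and at 94.2 and 98.9 RPKM in WT. The groups were apart for Il7r, a gene on a list chosen with earlier results of these data known. Of 17 interferon-inducible GTPases, another family of immune GTP-binding proteins, 7 were above 0 and 0 passed, with a median log2 fold change of -0.03.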

How the data were processed

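RNA-seq was measured in 4 libraries, 2 Nsd2 cKO and 2 WT, grouped by the labels. The authors deposited RPKM values per RefSeq transcript; their unit was inferred from the values themselves. The submitters' processing notes list HISAT2, DESeq2 and mm10 without versions or roles. The sources used here give neither the counting tool, nor any filter, nor the use of strand. Depth was estimated from the steps between low values with GENCODE M21 lengths, and 65.2% to 67.6% of the values used lay within 0.1 of a whole read. Since the depth was fitted to these values, the share is not a separate check.

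Rows were matched to genes of GRCm38.p6 by accession (16720) or name (910). The 1661 unmatched rows, with 11.6% of the RPKM sum, stayed out of the tests. limma 3.58.1 (R 4.3.3) was fitted to log2(RPKM + 1) of 10518 genes with trend and robust moderation and genotype as the only term, two-sided, with Benjamini-Hochberg adjustment at 0.05. The code was run on simulated data with independent noise of the same size for every gene and no difference between replicate numbers. That run does not show how the test performs on these libraries. Fold changes on this scale understate the change of low genes. Sequence features were computed with Biopython 1.88, and figures drawn with matplotlib 3.10.9.

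The members and lists were chosen with earlier results of these data known. The genes named were the members, Nsd2, up to 3 genes of lowest p per list with Bcl2, Bax, Gabarapl2 and Il7r, the neighbours within 250 kb and the 3 genes of most similar profile. Not all of them are printed, and the values of 1 of the similar genes are not reported here. The marker genes were named as a check of the cells. Scaling, filter, pseudocount, transcript rows, moderation, replicate block and left-out libraries were varied.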

Additional observations from a re-analysis of the deposited data

How the results depend on the processing

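No GIMAP gene passed under any of the 11 alternatives run in limma. With median-of-ratios scaling the log2 fold changes of Gimap6 and Gimap8 turned to -0.027 and -0.0094, the members' median moved to -0.059 and the ratio of summed levels, cKO over WT, to 0.933. Leaving out 1 library gave 31 to 74 called genes in all, 0 of them a member, in fits where the lone library is assumed to vary like the other group. The members' median then ran from -0.026 to 0.015, and the ratio of summed levels from 0.952 to 0.976. The log2 fold change ran from -0.36 to 0.033 for Gimap1, -0.13 to 0.13 for Gimap4, -0.17 to 0.17 for Gimap5, -0.050 to 0.093 for Gimap6, -0.076 to 0.031 for Gimap7, -0.0041 to 0.081 for Gimap8 and -0.088 to 0.029 for Gimap9, so each changed sign, while Gimap3 stayed below 0, from -0.21 to -0.014. With 2 libraries per group, these shifts follow from the differences between replicate numbers within a genotype. The cause of those differences was not tested. With the replicate block 1 gene was called in all and 0 members, and Gimap1 had limma's unadjusted p = 0.0240 and adjusted p = 0.257. In that fit 1629 of 10518 genes had an unadjusted p under 0.05, against 332 in the main fit. Deviations from the group mean correlated at 0.507 across 10518 genes between libraries of the same number; with 2 pairs and no label for what a number shares, the libraries are taken to share only a number. No filter, a mean of at least 4 RPKM, a pseudocount of 0.1, summed rows and plain moderation changed no direction and no call of a member. With 2 libraries per group, the spread between libraries limits the precision.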
